A study of Homo sapiens with 12 samples.

Results

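The 9 genes described here are the forkhead transcription factors FOXO1, FOXO3 and FOXO4, the arrestin-like protein TXNIP and its relative ARRDC4, the transcription factor pair MLXIP and MLX, and thioredoxin (TXN) with its reductase TXNRD1. They were chosen by symbol, as 9 of the 26481 genes with complete counts, and all 9 passed the filter on low counts that left 14164 genes for testing. RNA was sequenced from barcoded HEL cells, an established human erythroleukemia line of acute myeloid leukemia (AML) that the study describes as carrying a JAK2 driver mutation and a loss-of-function P53 mutation in every group. The 2 untreated libraries (NT) came from cells kept in 0.1 µM DMSO. The other groups were in vitro relapses, with 3 libraries after the anthracycline doxorubicin at 1.8 µM (Doxo), 3 after doxorubicin and the nucleoside analogue cytarabine at 6 µM (Doxo+Cyta), and 4 for which the hypomethylating agent decitabine at 0.1 µM was added to that pair (Doxo+Cyta+DAC). Cells were exposed for 72 to 74 h, dead cells were removed on a Ficoll gradient, and live cells grew for about 30 days before RNA was taken. The treated cells regrew in that time to the number first seeded. The study describes untreated cells as not depleted and as greatly expanded by then. The study singled out FOXO1, FOXO3, FOXO4 and TXNIP by their differences between the relapses without and with DAC. The 9 genes were chosen with these results known. These 2 comparisons are therefore described below without a test, and members were tested only in the other 4. Each tested comparison shares relapse libraries with these 2, most directly Doxo+Cyta+DAC over NT with its 4 DAC libraries. Its p-values are therefore not free of the selection.

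FOXO factors activate genes of cell-cycle arrest, stress resistance and autophagy, and are held in the cytoplasm when AKT or SGK kinases phosphorylate them. TXNIP binds thioredoxin through a disulfide, lowers its reducing activity and limits glucose uptake, and like ARRDC4 it is a classical target of the sugar-sensing complex of MLXIP (MondoA) and MLX. Thioredoxin reduces peroxiredoxins and ribonucleotide reductase, and TXNRD1, a selenoprotein, recharges it with NADPH. In blood stem cells FOXO factors and TXNIP are known for a part in quiescence and in the control of reactive oxygen.

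The sequences before the gene starts hold the letters by which several of these controls are recognised, and those of the 3 genes below are shown for that reason. They come from RefSeq on GRCh38.p14 and read in the direction of the gene. Bases inside an exon of the count annotation were left out, and of the TXNRD1 window only the 49 bases around the match are shown. Capitals mark motif matches, which are the FOXO element GTAAACA and the carbohydrate response element, a pair of E-box-like sites, in TXNIP (chr1:145996632-145996829, minus strand), the E-box CACGTG in ARRDC4 (chr15:97960453-97960702, plus strand), and the core of the antioxidant response element, TGACNNNGC, in TXNRD1 (chr12:104215660-104215708, plus strand).
TXNIP: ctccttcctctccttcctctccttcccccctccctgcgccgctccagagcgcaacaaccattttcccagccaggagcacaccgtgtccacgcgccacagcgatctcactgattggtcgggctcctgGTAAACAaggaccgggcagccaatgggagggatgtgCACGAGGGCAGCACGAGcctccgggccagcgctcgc
ARRDC4: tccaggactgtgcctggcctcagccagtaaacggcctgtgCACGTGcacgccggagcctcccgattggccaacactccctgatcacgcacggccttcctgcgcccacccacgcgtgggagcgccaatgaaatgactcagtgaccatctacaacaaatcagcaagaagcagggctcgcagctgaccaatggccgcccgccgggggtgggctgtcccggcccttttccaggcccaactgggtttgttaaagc
TXNRD1: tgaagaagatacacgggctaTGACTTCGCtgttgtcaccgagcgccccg

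All 9 genes had at least 1 RefSeq start, with 14 windows in all, and both strands of the 250 bases before each start were searched. Of all 35116 such windows, 0.424% held the carbohydrate response element, 2.98% the FOXO element, 6.34% the E-box and 10.9% the antioxidant core. A second TXNRD1 window, inside an exon of the count annotation, and 1 of the 4 FOXO3 windows also held the antioxidant core, and MLX held an E-box. The windows of FOXO1, FOXO4, MLXIP and TXN, 3 windows of FOXO3 and a second TXNIP window held none of the 4 motifs. A match is a string of letters and no measured binding site, and binding was not measured here.

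**Figure D1:**
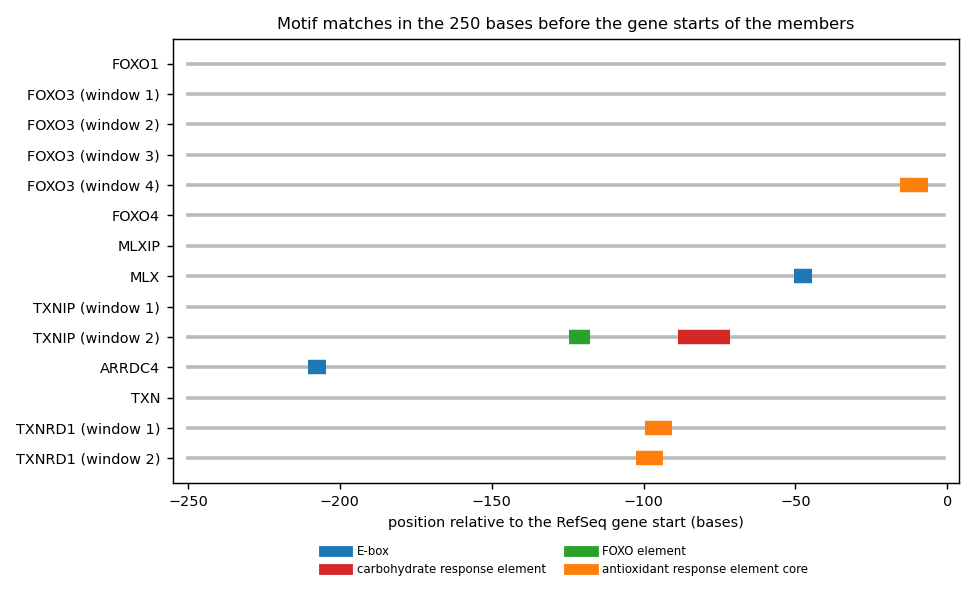
Motif matches in the 14 windows of 250 bases before the RefSeq gene starts of the 9 genes, by position relative to the start in bases; grey lines are the windows and coloured blocks the matches. In TXNIP the FOXO element lies 124 to 118 bases and the carbohydrate response element 88 to 72 bases before the start, and both TXNRD1 windows carry an antioxidant core.

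Total counts per library ranged from 12763582 to 19106235, so 3 counts, the lowest level taken as detectable, correspond to 0.157 to 0.235 CPM, the unit in which counts are scaled to one common library total. Within Doxo, replicate 4 stood apart from replicates 5 and 6, and within Doxo+Cyta, replicate 20 stood apart from 19 and 22. The chi-square per degree of freedom between libraries was 25.5 to 27.8 and 43.7 to 45.3 for the pairs with these libraries, against 2.97 and 6.93 for the remaining pair of each group, so a call that changed without either of them is named beside its result. Erythroid and megakaryocytic markers summed to between 7358 and 12138 CPM in every library, and all 18 listed except PF4 (at most 3 counts) were detected. The lists of other cells summed to at most 59 CPM, and their defining markers CD3D, MS4A1, COL1A2, EPCAM and MPO were at 3 counts or fewer in each library. Most of those sums in the T and NK cell, B cell and monocyte lists came from single detected genes, CD2 at group means of 28.6 to 49.3 CPM, CD79B at 19.5 to 28.6 CPM and LYZ at 27.2 to 39.3 CPM. The 6 fibroblast markers summed to 36.8 to 49.6 CPM without DAC and 6.82 to 10.1 CPM with it, nearly all from PDGFRB, with COL1A2 and DCN at 3 counts or fewer and LUM at 0, and their part in the results was not tested. These are bulk samples, in which fewer cells that express a gene and less RNA per cell cannot be told apart.

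TXNIP, on chromosome 1 (chr1:145992442-145996631, minus strand), was the most abundant of the 9 genes and moved furthest. It stood at 982 and 882 CPM in NT, at 1290, 2010 and 2020 CPM in Doxo, at 1295, 1177 and 1551 CPM in Doxo+Cyta and at 165, 240, 202 and 280 CPM in Doxo+Cyta+DAC. Every relapse without DAC was above both NT libraries, and every relapse with DAC was below them, with no overlap. TXNIP fell by 2.07 on the log2 scale in Doxo+Cyta+DAC relative to NT (SE 0.20, a 4.21-fold lower level), with a Benjamini-Hochberg adjusted p of 4.77e-06 in the quasi-likelihood test of edgeR across all tested genes. By log2 fold change TXNIP was the 317th lowest of 14164 tested genes in that comparison. TXNIP rose in Doxo relative to NT, by 0.93 on the log2 scale (SE 0.22, 1.90-fold), with an adjusted p of 0.0196. That call was lost on leaving out NT replicate 1 or 2 or Doxo replicate 5 or 6 (adjusted p of 0.0816 to 0.177, edgeR), whereas without Doxo replicate 4 the difference was 1.08 (SE 0.20, adjusted p = 0.00357, edgeR). In Doxo+Cyta relative to NT the difference was 0.52 (SE 0.22, adjusted p = 0.2, edgeR) and did not pass the test.

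ARRDC4 (chr15:97960703-97973838, plus strand), an arrestin-like relative of TXNIP, was highest in Doxo. Its levels were 153 and 173 CPM in NT, 219, 264 and 244 CPM in Doxo, 178, 146 and 196 CPM in Doxo+Cyta and 87.3, 93.2, 138 and 149 CPM in Doxo+Cyta+DAC. All Doxo libraries lay above all libraries of the other 3 groups, and all DAC libraries lay below NT, by a narrow margin for replicate 33. Doxo over Doxo+Cyta+DAC was not tested. None of the tested differences passed, with a log2 difference of 0.57 (SE 0.21, adjusted p = 0.096, edgeR) in Doxo over NT and of -0.48 (SE 0.19, adjusted p = 0.053, edgeR) in Doxo+Cyta+DAC over NT. The second of these lies at the threshold, and its adjusted p was 0.0156 to 0.0489 under 8 of its 12 alternatives, RLE scaling (0.0478), DESeq2 (0.0489) and the fits without DAC replicate 32 (0.0366) or 33 (0.0156) among them. The first passed the test (adjusted p = 0.023, edgeR) when only Doxo and NT were fitted. Among the other arrestin-like genes, ARRDC3 fell by 1.22 in Doxo+Cyta+DAC relative to NT (SE 0.26, adjusted p = 0.00184, edgeR), while ARRDC1 (-0.36, adjusted p = 0.162, edgeR) and ARRDC2 (0.24, adjusted p = 0.163, edgeR) did not pass, and ARRB1 and ARRB2, the beta-arrestins that bind activated receptors, rose by 0.64 and 0.62. None of these 5 passed the test between Doxo or Doxo+Cyta and NT.

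Of MLXIP and MLX, the pair known to drive TXNIP and ARRDC4, only MLXIP set the DAC libraries apart from all others. MLXIP (chr12:122078728-122147347, plus strand), the sugar-sensing partner, stood at 237 and 253 CPM in NT, 237, 226 and 223 CPM in Doxo, 254, 209 and 223 CPM in Doxo+Cyta and 162, 141, 132 and 142 CPM in Doxo+Cyta+DAC. The 8 libraries without DAC overlapped among themselves, and the 4 with DAC lay below all of them. MLXIP fell by 0.76 in Doxo+Cyta+DAC relative to NT (SE 0.11, 1.70-fold lower, adjusted p = 8.32e-05, edgeR), and its log2 difference in Doxo over NT was -0.10 (SE 0.12, adjusted p = 0.612, edgeR).

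MLX (chr17:42567060-42573203, plus strand), the DNA-binding partner that MLXIP shares with other factors, varied least of the 9. It ranged from 40.1 to 40.3 CPM in NT, from 46.6 to 49.5 CPM in Doxo, from 43.8 to 46.2 CPM in Doxo+Cyta and from 42.7 to 53.7 CPM in Doxo+Cyta+DAC. In these CPM, scaled by TMM factors, both NT libraries lay below all 10 relapses, and the DAC libraries spanned the other 2 relapse groups. Before that scaling NT stood at 42.5 and 43 CPM, above Doxo+Cyta replicate 20 (41.8) and DAC replicate 31 (41.5). Its rise with DAC over NT by 0.29 (SE 0.12) had an adjusted p of 0.0496 (edgeR), and it did not pass under 10 of 12 alternatives, which included RLE scaling (0.0554), upper-quartile scaling (0.151), and the fits without NT replicate 1 (0.193) or 2 (0.197) or DAC replicate 30 (0.113), 32 (0.102) or 33 (0.0731). MLX shares 775 exon bases with PSMC3IP on the opposite strand, and the counting did not use strand, so reads of the 2 genes cannot be told apart there. MLXIPL (ChREBP), the other sugar-sensing partner of MLX, had 0 or 1 count in each library and was not tested.

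**Figure D2:**
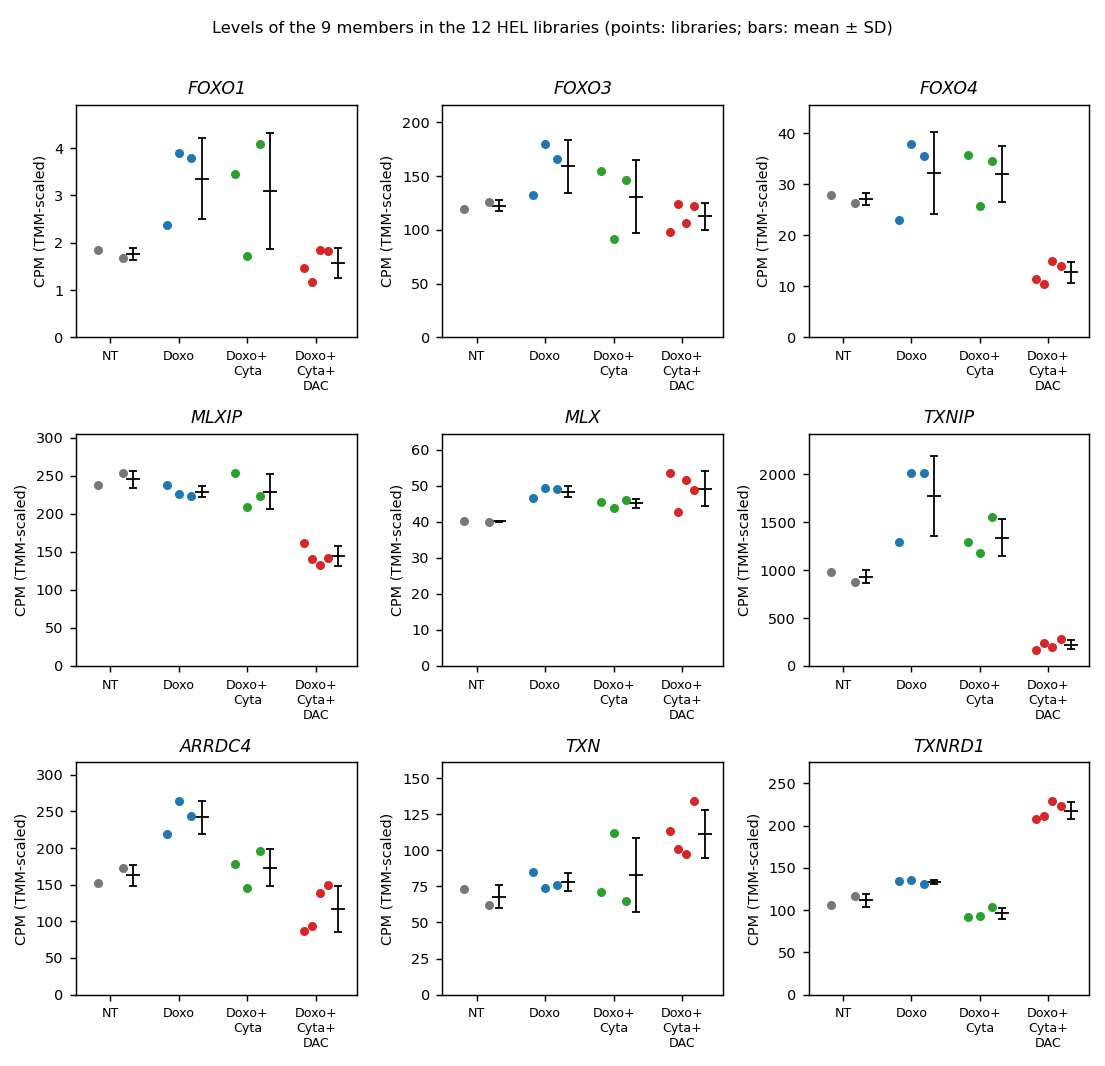
Levels of the 9 genes in each of the 12 libraries, in CPM scaled by TMM factors on a linear axis from 0; points are libraries and bars show mean ± SD of each group. TXNIP stands at 165 to 280 CPM in the 4 DAC libraries and at 882 CPM or more in the other 8, and TXNRD1 stands at 208 CPM or more with DAC and at 136 CPM or less without it.

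Of the FOXO genes, FOXO3 was the most abundant and FOXO1 the least, and of these 3 members only FOXO4 passed the test with DAC relative to NT. Per length, in TPM (counts divided by exon length and scaled to a common total), FOXO3 made up 58.7 to 62.6% of the summed level of FOXO1, FOXO3, FOXO4 and FOXO6 in NT and 69.9 to 79.7% in Doxo+Cyta+DAC, whereas FOXO4 made up 29.4 to 31% and 15.2 to 22.3%. FOXO1 made up at most 2.16% in any library.

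FOXO4 (chrX:71096149-71103534, plus strand) stood at 27.9 and 26.3 CPM in NT, at 23, 37.9 and 35.5 CPM in Doxo, at 35.8, 25.7 and 34.5 CPM in Doxo+Cyta and at 11.4, 10.5, 15 and 14 CPM in Doxo+Cyta+DAC. Of the relapses without DAC, the 2 libraries that stand apart, Doxo 4 and Doxo+Cyta 20, lay below NT and the other 4 above it. FOXO4 fell by 1.09 in Doxo+Cyta+DAC relative to NT (SE 0.20, 2.13-fold lower, adjusted p = 0.000705, edgeR). In Doxo over NT its log2 difference was 0.25 (SE 0.22, adjusted p = 0.485, edgeR), and 0.41 (adjusted p = 0.138, edgeR) without Doxo replicate 4.

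FOXO1 (chr13:40555664-40666597, minus strand) rested on 17 to 67 counts per library. It stood at 1.85 and 1.67 CPM in NT, at 2.37, 3.9 and 3.79 CPM in Doxo, at 3.46, 1.73 and 4.09 CPM in Doxo+Cyta and at 1.47, 1.17, 1.84 and 1.82 CPM in Doxo+Cyta+DAC. The Doxo libraries lay above NT, the Doxo+Cyta libraries did so except for replicate 20, and the DAC libraries overlapped NT. The difference in Doxo over NT was 0.93 (SE 0.36, adjusted p = 0.108, edgeR) and passed the test only without Doxo replicate 4 (1.09, SE 0.36, adjusted p = 0.0448, edgeR). Over the same controls, Doxo+Cyta differed by 0.82 (SE 0.36, adjusted p = 0.222, edgeR), and 1.08 (SE 0.31, adjusted p = 0.0849, edgeR) without replicate 20.

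FOXO3 (chr6:108559823-108684768, plus strand) stood at 119 and 126 CPM in NT, 132, 180 and 166 CPM in Doxo, 155, 91.7 and 146 CPM in Doxo+Cyta and 98.1, 124, 106 and 122 CPM in Doxo+Cyta+DAC. No tested difference of FOXO3 passed, and replicate 20 of Doxo+Cyta was the lowest of the 12 libraries. Its near-copy FOXO3B on chromosome 17 (chr17:18665923-18673181, minus strand, 1 exon) aligned over its whole 7259 bases to FOXO3 exons with 98.3% identity, and 28% of the 100-base windows of FOXO3 exons occur in it letter for letter. FOXO3B was at a mean of 7.25 CPM ± 1.45 (SD, n = 2) in NT and 18.2 CPM ± 2.7 (SD, n = 4) in Doxo+Cyta+DAC, a rise of 1.33 (SE 0.20, adjusted p = 0.000146, edgeR), while FOXO3 differed by -0.12 (SE 0.19, adjusted p = 0.606, edgeR). FOXO3B also differed between Doxo+Cyta and Doxo, where it fell by 0.79 (SE 0.19, adjusted p = 0.0383, edgeR). The share of reads that the aligner could place on either gene was not tested, and with both counts summed, an alternative chosen after seeing the data, FOXO3 differed from NT by -0.01 (SE 0.18, adjusted p = 0.964, edgeR). FOXO6, the fourth active FOXO gene, fell by 0.87 in Doxo+Cyta+DAC relative to NT (SE 0.25, adjusted p = 0.0101, edgeR), from 5.14 CPM ± 1.03 (SD, n = 2) to 2.82 CPM ± 0.852 (SD, n = 4).

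Thioredoxin and its reductase were higher with DAC, opposite in direction to TXNIP. TXNRD1 (chr12:104215779-104350307, plus strand) stood at 106 and 117 CPM in NT, 134, 136 and 131 CPM in Doxo, 91.9, 93 and 104 CPM in Doxo+Cyta and 208, 211, 229 and 223 CPM in Doxo+Cyta+DAC. The ranges of the 4 groups did not overlap, in the order Doxo+Cyta+DAC, Doxo, NT and Doxo+Cyta. TXNRD1 rose by 0.97 in Doxo+Cyta+DAC relative to NT (SE 0.10, 1.95-fold, adjusted p = 9.46e-06, edgeR). It was the only one of the 9 that passed the test between Doxo+Cyta and Doxo, where it fell by 0.48 (SE 0.09, 1.39-fold lower, adjusted p = 0.0134, edgeR). This call was lost when only these 2 groups were fitted (adjusted p = 0.117, edgeR), without Doxo replicate 5 (0.0696) and without Doxo+Cyta replicate 19 (0.0686), and it was kept without Doxo replicate 4 (0.0187) and without Doxo+Cyta replicate 20 (0.0172). Its differences in Doxo over NT (0.26, SE 0.10, adjusted p = 0.116, edgeR) and in Doxo+Cyta over NT (-0.21, SE 0.10, adjusted p = 0.261, edgeR) did not pass.

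TXN (chr9:110243812-110256640, minus strand) stood at 73.5 and 62.2 CPM in NT, 85.2, 73.7 and 75.7 CPM in Doxo, 70.9, 112 and 64.9 CPM in Doxo+Cyta and 113, 101, 97.4 and 134 CPM in Doxo+Cyta+DAC. The DAC libraries lay above all others except Doxo+Cyta replicate 20, which reached their range. TXN rose by 0.71 in Doxo+Cyta+DAC relative to NT (SE 0.20, 1.64-fold, adjusted p = 0.00965, edgeR), and without NT replicate 2 the difference was 0.60 (adjusted p = 0.109, edgeR). Of the paralogues, the mitochondrial reductase TXNRD2 rose by 0.58 (SE 0.19, adjusted p = 0.0231, edgeR), TXNRD3 fell by 1.24 (SE 0.33, adjusted p = 0.00719, edgeR) to 0.92 CPM ± 0.278 (SD, n = 4), and the mitochondrial thioredoxin TXN2 differed by -0.14 (SE 0.12, adjusted p = 0.324, edgeR).

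Counted over the 9 genes, 1 was called higher and 0 lower in Doxo relative to NT, where 6.06% and 4.63% of all tested genes were called higher and lower. The counts at an unadjusted p under 0.05 were 5 and 0, and DESeq2 called 1 and 0. Shares of all tested genes at an unadjusted p under 0.05 were not counted in any comparison. The unadjusted counts can therefore not be set beside the shares given here. Of the same 9 genes, 0 were called between Doxo+Cyta and NT in either direction (background 0.911% higher and 0.551% lower), with 2 genes, FOXO1 and TXNIP, higher at an unadjusted p under 0.05 and 0 lower, and DESeq2 called 0. For Doxo+Cyta+DAC relative to NT, 3 were called higher (TXN, TXNRD1 and MLX) and 3 lower (TXNIP, FOXO4 and MLXIP), beside 24.9% and 23.7% of all tested genes, so these shares are near those of all genes. At an unadjusted p under 0.05 the counts were 3 and 4, and DESeq2 called 3 and 4. Between Doxo+Cyta and Doxo, 0 were called higher and 1, TXNRD1, lower, beside 1.07% and 2.32% of all tested genes (152 higher and 329 lower, or 205 and 249 with upper-quartile scaling), with 0 and 2 at an unadjusted p under 0.05, and DESeq2 called 0 and 1. The median log2 fold change of the 9 genes was 0.27, 0.17, -0.16 and -0.11 in these 4 comparisons, against 0.01, 0.01, 0.02 and 0.01 over all tested genes.

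**Figure D3:**
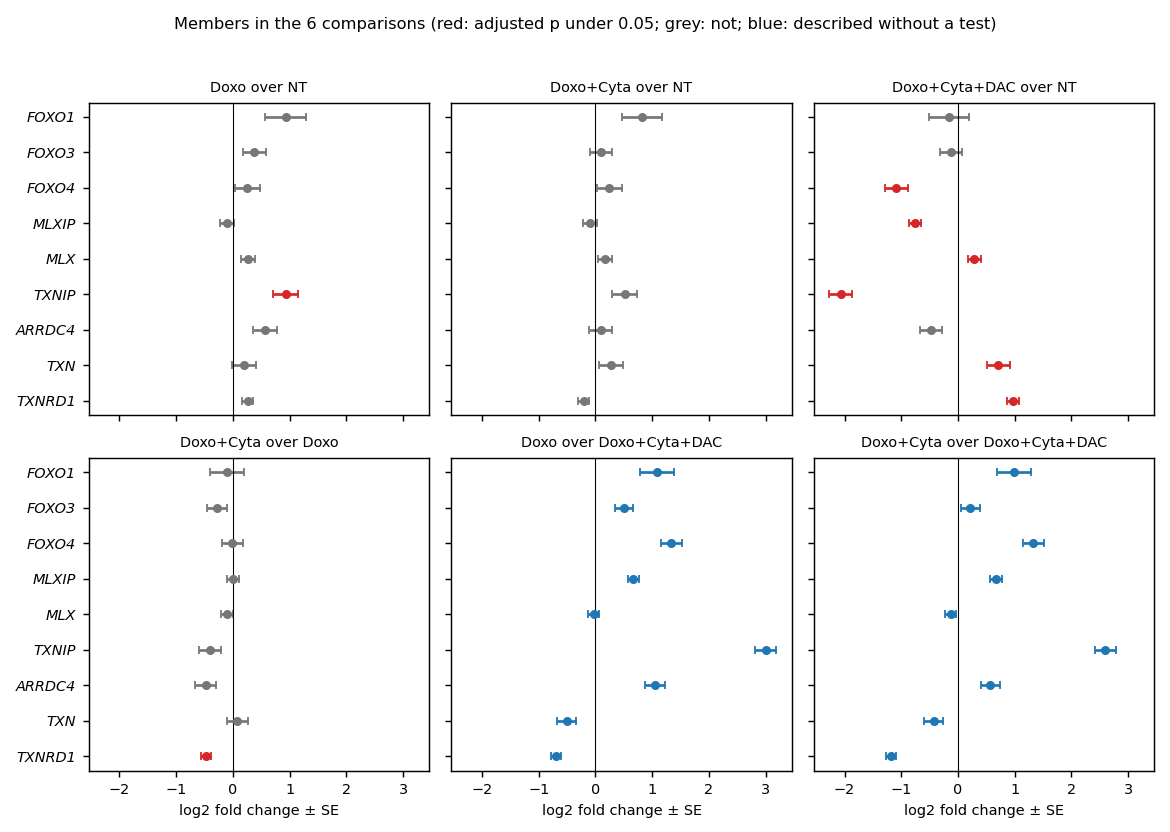
Log2 fold changes of the 9 genes with their standard errors in the 6 comparisons; red marks an adjusted p under 0.05 (edgeR), grey a tested difference that did not pass, and blue the comparisons described without a test. TXNIP lies at -2.07 in Doxo+Cyta+DAC over NT and at 3.00 and 2.60 in the relapses without DAC over those with it, where TXNRD1 lies at -0.70 and -1.18.

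FOXO1, FOXO3, FOXO4 and TXNIP were singled out by the differences between the relapses without and with DAC. Relative to Doxo+Cyta+DAC, TXNIP was 3.00 higher on the log2 scale in Doxo (SE 0.19, 8.01-fold) and 2.60 higher in Doxo+Cyta. FOXO4 was 1.34 and 1.33 higher, FOXO1 1.09 and 0.98, MLXIP 0.67 and 0.67, ARRDC4 1.05 and 0.57, and FOXO3 0.50 and 0.22. MLX differed by -0.03 and -0.13, TXN by -0.51 and -0.43 and TXNRD1 by -0.70 and -1.18. Without Doxo+Cyta replicate 20, FOXO3 was 0.43 higher in Doxo+Cyta and TXN differed by -0.71, and with FOXO3B counts added the FOXO3 difference was 0.07. The libraries of Doxo and Doxo+Cyta+DAC did not overlap for 6 genes that were higher in Doxo and 2 that were lower, as was so for 30.2% and 29.7% of all tested genes, and 30.4% and 29.1% of all tested genes were called higher and lower. For Doxo+Cyta the numbers were 3 and 1, beside 28.2% and 29% of all tested genes without overlap and 30.5% and 29.8% called. Without Doxo+Cyta replicate 20 the libraries of 8 members did not overlap, but the share of all tested genes was not counted there. With fewer libraries, ranges overlap less often for any gene. Both comparisons share the 4 DAC libraries, and since they served to single out FOXO1, FOXO3, FOXO4 and TXNIP nothing is read from these counts.

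Within each library, the ratio of TXNIP to TXN per length can be read without a scaling factor. It was 3.93 and 4.17 in NT, 4.46, 8.02 and 7.85 in Doxo, 5.37, 3.09 and 7.03 in Doxo+Cyta and 0.43, 0.7, 0.61 and 0.614 in Doxo+Cyta+DAC. TXNIP RNA thus outnumbered TXN RNA per length in all 8 libraries without DAC and in none of the 4 with it. The ratio of TXNIP to its relative ARRDC4 was 7.01 to 11.4 without DAC and 2.02 to 3.55 with it, and that of FOXO3 to FOXO3B was 11.0 to 25.4 without DAC and 4.7 to 7.32 with it. The aligner did not split reads over exon junctions, which lowers the counts of genes with many short exons, and the size of this loss was not tested.

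**Figure D4:**
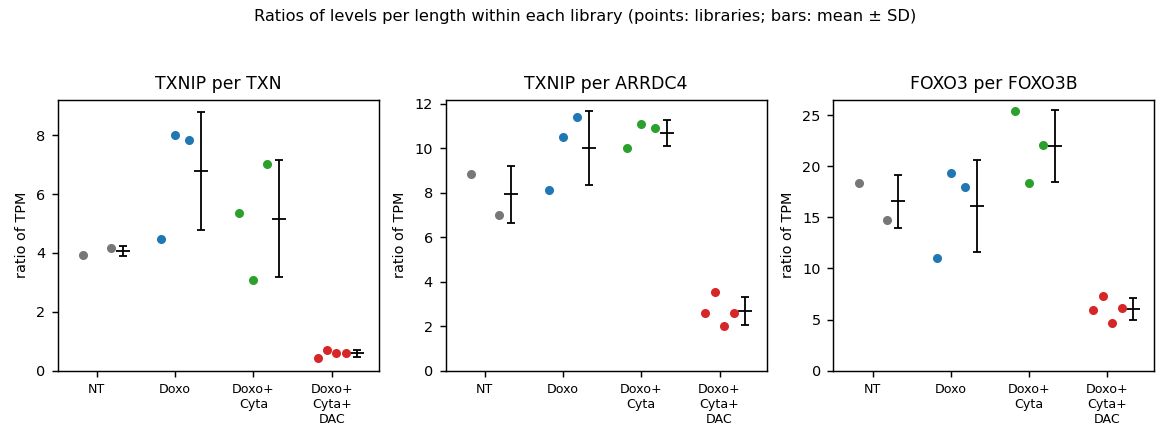
Ratios of TPM within each library for TXNIP to TXN, TXNIP to ARRDC4 and FOXO3 to FOXO3B, on linear axes from 0; points are libraries and bars show mean ± SD of each group. The 4 DAC libraries lie below the 8 others in all 3 panels, at 0.43 to 0.7, 2.02 to 3.55 and 4.7 to 7.32.

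By mean TPM over the 12 libraries, 1.14% of tested genes were above TXNIP (721 TPM), 4.45% above TXN (218 TPM), 12.5% above ARRDC4, 16% above TXNRD1, 21.5% above MLXIP, 27.2% above MLX, 28.3% above FOXO3, 48% above FOXO4 and 89.7% above FOXO1 (0.903 TPM). TXNIP was thus among the more abundant RNAs of these cells and FOXO1 among the scarce ones.

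Genes of the wider pathways were taken from lists of textbook members, written without regard to how they moved but with earlier results of these data known. Their counts are to be read beside the shares of all tested genes given above, 6.06% higher and 4.63% lower in Doxo relative to NT, 24.9% and 23.7% in Doxo+Cyta+DAC relative to NT, and, over the relapses with DAC, 30.4% and 29.1% in Doxo and 30.5% and 29.8% in Doxo+Cyta. Of 37 tested FOXO target genes, 10 rose and 0 fell in Doxo relative to NT, with a median log2 fold change of 0.43 against 0.01 over all tested genes. The 3 that moved most were the cell-cycle inhibitor CDKN1A, which rose by 3.13 (SE 0.56, adjusted p = 0.0054, edgeR), the insulin receptor INSR, which rose by 2.52 at a low level of 1.94 CPM, and KLF6, which rose by 1.69. The count was 1 without NT replicate 1 and 2 without NT replicate 2. CDKN1A and several others of the list are also targets of p53 and of other stress factors, and the list does not tell these apart. The comparison of Doxo+Cyta with NT gave 1 rise (FBXO32, a ubiquitin ligase, by 1.75) and 0 falls.

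With DAC the FOXO targets split relative to NT, with 9 that rose and 14 that fell and a median of 0.01. The interleukin-7 receptor IL7R rose by 2.97 (SE 0.30, adjusted p = 6.28e-06, edgeR), from 1.91 to 15 CPM. The receptor ERBB3 fell by 2.55 to a low 0.317 CPM, and the stress-induced sestrin SESN3 fell by 2.54, from 74.9 to 13 CPM (adjusted p = 0.000104, edgeR). Relative to Doxo+Cyta+DAC, 23 targets were higher and 6 lower in Doxo, and 18 higher and 9 lower in Doxo+Cyta, with SESN3 3.38 and 3.05 higher and the cyclin CCNG2 2.74 and 2.99 higher. Between Doxo+Cyta and Doxo, 0 rose and 4 fell, among them CDKN1A (-2.06) and KLF6 (-1.10).

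Of 41 tested genes that control FOXO factors (PI3K, AKT, SGK, 14-3-3 proteins, deacetylases and others), 4 rose and 4 fell in Doxo relative to NT, and 13 rose and 7 fell in Doxo+Cyta+DAC. In Doxo the insulin receptor INSR rose by 2.52, the adaptor IRS2 by 1.34 and the kinase SGK1 by 1.28. INSR and IRS2 are in the list of FOXO targets too, so their rises count in both lists. With DAC the kinase SGK2 fell by 2.61 to 0.294 CPM, while the acetyltransferase EP300 rose by 0.96. The falls with DAC numbered 4 without NT replicate 1, 4 without NT replicate 2 and 11 when only DAC and NT libraries were fitted, and both shares with DAC are near those of all genes. Doxo+Cyta differed from NT in 0 rises and 1 fall, that of MTOR (-0.83, adjusted p = 0.0338, edgeR), and from Doxo in 0 rises and 2 falls, those of EP300 (-0.92) and the deacetylase SIRT1 (-0.75).

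In the network of MLX and MAX, the family of E-box binding factors to which MLXIP belongs, 1 of 9 tested genes rose and 5 fell in Doxo+Cyta+DAC relative to NT. MXI1 fell by 2.14 (SE 0.23, adjusted p = 1.17e-05, edgeR), MXD4 fell by 1.81 (adjusted p = 7.55e-06, edgeR) and MXD3 fell by 1.53 (adjusted p = 6.28e-06, edgeR), and these are MAX partners that repress transcription. The 1 that rose, named after its value was seen, was MYC, by 0.85 (SE 0.13, adjusted p = 0.00016, edgeR), from 279 to 503 CPM. Without NT replicate 1 the fall was counted for 3 genes. In Doxo relative to NT, 1 rose (MXD1, by 0.83) and 0 fell. In Doxo+Cyta relative to NT, 0 rose and 1 fell (MYC, -0.57, adjusted p = 0.0489, edgeR). The calls of MYC, MTOR and FBXO32 in that comparison carry a limit. Over all tested genes its 129 higher and 78 lower calls became 9 and 4 when only these groups were fitted. Between Doxo+Cyta and Doxo, 1 fell (MNT, a MAX-binding repressor, -0.45). MXI1 is in the list of FOXO targets too.

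**Figure D5:**
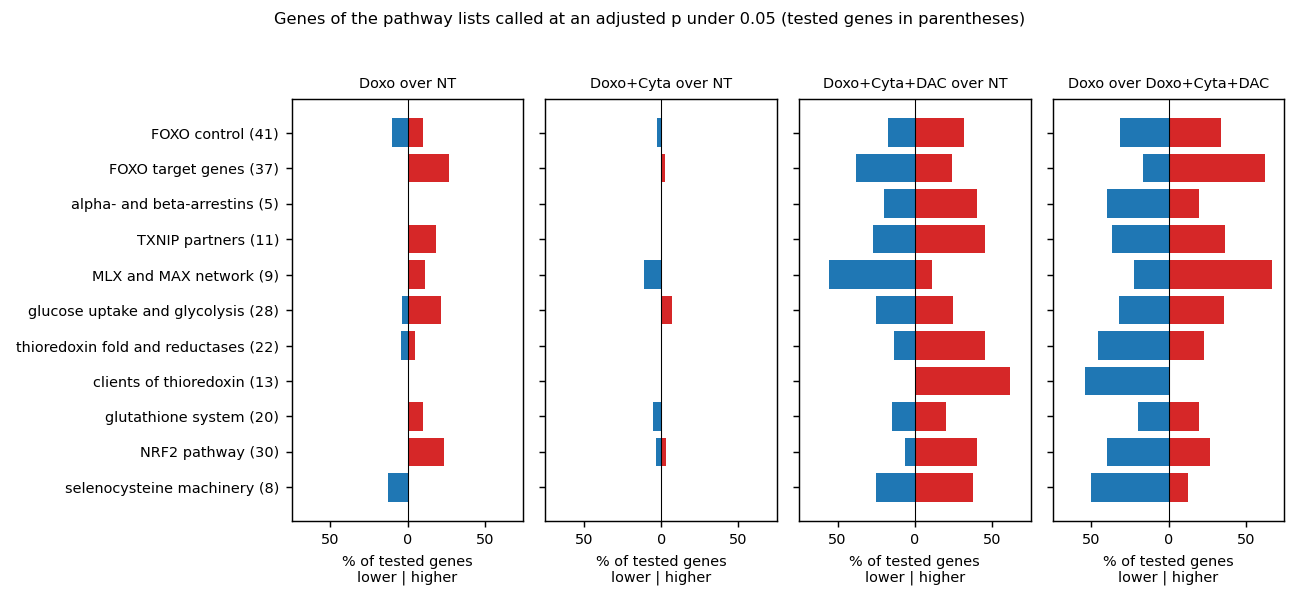
Share of the tested genes of each pathway list that was called higher (red, to the right) or lower (blue, to the left) at an adjusted p under 0.05 (edgeR), in percent, with the number of tested genes in parentheses, for 4 of the 6 comparisons. Of the 13 genes listed as thioredoxin clients, 8 are higher and 0 lower in Doxo+Cyta+DAC over NT. Of 37 FOXO targets, 10 are higher and 0 lower in Doxo over NT.

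The list of thioredoxin clients held peroxiredoxins, methionine sulfoxide reductases, ribonucleotide reductase subunits and SRXN1, and is wider than its direct substrates. Of its 13 tested genes, 8 rose and 0 fell in Doxo+Cyta+DAC relative to NT, and fewer were called without NT replicate 2. The median was 0.47 against 0.02 over all tested genes. PRDX1 and SRXN1 are also in the NRF2 list, and PRDX3 and PRDX5 in that of FOXO targets. The peroxiredoxins PRDX1 (1.39, SE 0.20, adjusted p = 7.78e-05, edgeR), PRDX4 (0.92) and PRDX3 (0.72) rose most, with PRDX1 going from 149 CPM ± 14.6 (SD, n = 2) to 391 CPM ± 24.2 (SD, n = 4). Against NT, 0 of the 13 were called by edgeR in either direction in the relapses without DAC. Of 22 other proteins with a thioredoxin fold and reductases, 10 rose and 3 fell with DAC relative to NT, with TXNDC17 1.07 and TXNDC9 0.94 higher, whereas in Doxo 1 rose (TXNL4B, by 0.53) and 1 fell (TXNDC5, -0.99).

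The NRF2 pathway is known to act through antioxidant response elements, and whether the match shown for TXNRD1 is one in use was not tested. Of its 30 tested genes, 12 rose and 2 fell in Doxo+Cyta+DAC relative to NT, and 7 rose and 0 fell in Doxo. With DAC the cystine transporter SLC7A11 rose by 1.47 (SE 0.23, adjusted p = 0.000192, edgeR) and NFE2L2, which encodes NRF2, by 1.34 (SE 0.18, adjusted p = 6.30e-05, edgeR), from 47.5 to 120 CPM. In Doxo the genes that moved most were the haem oxygenase HMOX1 (1.49, adjusted p = 0.000407, edgeR), which differed by -0.12 with DAC (adjusted p = 0.543, edgeR), and MAFF (1.24). Without NT replicate 1 the counts of rises were 7 with DAC and 1 in Doxo, and without NT replicate 2 or Doxo replicate 5 or 6 those in Doxo were 1, 3 and 3. Between Doxo+Cyta and Doxo, 0 rose and 3 fell, SLC7A11 (-0.90), MAFF (-0.88) and HMOX1 (-0.69). Of 20 tested genes of the glutathione system, 4 rose and 3 fell with DAC, with GSTP1 1.61 higher, and of 8 genes that build selenocysteine into proteins such as TXNRD1, 3 rose and 2 fell, with SEPHS1 at 0.99 and SEPSECS at -0.85. In Doxo relative to NT, 2 glutathione genes rose (GSTP1 and, by 0.42, GSR) and 1 selenocysteine gene fell (SEPHS1, -0.66).

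Of 11 tested partners of TXNIP, 5 rose and 3 fell in Doxo+Cyta+DAC relative to NT, with the stress protein DDIT4 at -1.37, the inflammasome sensor NLRP3 at 1.12 and the deacetylase HDAC1 at 1.04. In Doxo relative to NT, 2 rose (NLRP3 by 1.72 and HDAC1 by 0.49) and 0 fell. The rises with DAC numbered 1 and 2 without NT replicate 1 or 2 and 3 without DAC replicate 30, 31 or 33 or with upper-quartile scaling. Of 28 genes of glucose uptake and glycolysis, 7 rose and 7 fell, which is near the shares of all genes, and the 3 largest changes were falls of PFKFB4 (-2.45, SE 0.16, adjusted p = 3.36e-07, edgeR), ENO2 (-2.19) and ALDOC (-2.11). Without NT replicate 2 the counts were 4 and 4, and with upper-quartile scaling 4 rose. In Doxo relative to NT, 6 rose and 1 fell (SLC2A12, -0.96), with GAPDH at 0.72 and the glucose transporter SLC2A3 at 0.73 among the rises, and 0, 0, 1 and 2 rises were counted without NT replicate 1, NT replicate 2, Doxo replicate 5 and Doxo replicate 6.

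The genes whose pattern over the 12 libraries was most like that of a member were found among 10520 genes with a mean of at least 5 CPM, by the root-mean-square difference of log2 CPM after each gene's own mean was taken away. TXNIP was followed most closely by MXI1 (0.215), OPTN (0.238) and P4HA1 (0.247), where TXNIP itself varied by 1.293 about its mean. OPTN, an autophagy receptor, stood on average at 126 CPM in NT, 227 CPM in Doxo, 230 CPM in Doxo+Cyta and 27.8 CPM in Doxo+Cyta+DAC, and P4HA1, a collagen prolyl hydroxylase, at 278, 360, 333 and 65.9 CPM in the same order. For FOXO4 the closest were CXorf38 (0.093), BET1 (0.095) and PLD1 (0.119), for FOXO1 CYBRD1, SAMD8 and VPS37A (0.152 to 0.163), and for FOXO3 ABCB1, SRGAP2B and FNIP1 (0.082 to 0.086). For MLXIP they were KCND1, FAM53B and TRERF1 (0.073 to 0.089), for MLX CRNKL1, GNB1 and LRRC47 (0.073 to 0.078), and for ARRDC4 KATNAL1, ABCC4 and GFPT1 (0.113 to 0.161). TXN was closest to NDUFA8, REXO4 and NDUFA6 (0.115 to 0.125). TXNRD1 was closest to CTR9 (0.066), EIF4G2 (0.092) and UBE3C (0.094), and CTR9 stood at 150, 178, 129 and 286 CPM on average in the 4 groups, in the same order as TXNRD1. These are descriptions of 12 libraries that share 4 groups, with no test.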

How the data were processed

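RNA-seq of 12 HEL samples was analysed, in groups taken from the sample labels. The series text speaks of 3 untreated replicates, and the 2 with sample labels were analysed. The authors aligned paired-end reads to GRCh38 with Bowtie2 2.2.8 and counted fragments on exons with featureCounts 1.6.0 without strand. The deposited values are raw counts per gene. How fragments that fit several places were treated is not given in the sources used here. Of 26485 rows, 4 with a missing count were left out.

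Counts were fitted with edgeR 4.0.16 in R 4.3.3 (filterByExpr, TMM, glmQLFit and glmQLFTest), with all 12 samples in 1 fit of 4 groups, two-sided tests, and Benjamini-Hochberg adjustment over the 14164 tested genes. A gene was called where its adjusted p was below 0.05. Each standard error is the absolute log2 fold change over the square root of F. CPM are scaled by TMM factors. TPM use the deposited exon lengths. The fit was also run on counts simulated with its own estimated spread and few changed genes. That run cannot test the scaling or the spread of the real data. The labels call the samples of a condition biological replicates.

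The members and lists were chosen with earlier results of these data known. Named genes were all members, their paralogues, at most 3 called genes per list and comparison (largest change, at least 1 CPM in the higher group, libraries not overlapping), and the 3 genes most like each member. Alternatives were DESeq2 1.42.0, RLE and upper-quartile scaling, no low-count filter, at least 10 counts in every sample, only the groups compared, and leaving out each sample. Promoter windows were RefSeq sequences of GRCh38.p14, and FOXO3B was aligned with blastn 2.17.0. Python 3.11.15 was used for tables and figures. The limit of 3 counts covers counting error only.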

Additional observations from a re-analysis of the deposited data

How the results depend on the processing

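With 2 NT libraries, comparisons with NT depend on each of them, and FOXO1 rests on few counts. Of 418 repeats of the members' tests under an alternative, 369 kept direction and call, 18 lost the call, 10 gained it and 21 changed sign, these 21 among differences that were not called. TXNIP, FOXO4, MLXIP and TXNRD1 kept direction and call in Doxo+Cyta+DAC relative to NT under all 12 alternatives. Of 236 repeats of the differences described without a test, 3 changed sign. Of 1663 repeats for the named list genes, 177 lost the call and 0 changed sign. No paired analysis was possible because the groups share no replicate numbers.

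The members called in Doxo relative to NT numbered 1, but 2 when only these groups were fitted and 0 to 2 on leaving out a library. Between Doxo+Cyta and Doxo they numbered 1, but 0 when only these groups were fitted and 0 to 1 on leaving out a library. The members whose libraries did not overlap between Doxo+Cyta and Doxo+Cyta+DAC numbered 4, and 4 to 8 on leaving out a library. The share of all tested genes without overlap was not counted on leaving out a library.

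Signs changed where differences were close to 0. In Doxo+Cyta over Doxo, FOXO4 (-0.01) became 0.05 with upper-quartile scaling, 0.00083 without a filter and 0.0034 with at least 10 counts in every sample, and ranged from -0.19 to 0.14 on leaving out a library. MLXIP (-0.0015) became 0.00013 with RLE scaling, 0.05 with upper-quartile scaling, 0.01 without a filter and 0.01 with at least 10 counts, and ranged from -0.07 to 0.06. FOXO1 ranged from -0.35 to 0.17 and TXN from -0.20 to 0.24. In Doxo over Doxo+Cyta+DAC, MLX (-0.03) became 0.01 with upper-quartile scaling and 0.0027 with at least 10 counts, and ranged from -0.09 to 0.02. In Doxo+Cyta over NT, FOXO3 ranged from -0.06 to 0.28, ARRDC4 from -0.02 to 0.18 and TXN from -0.02 to 0.42. The cause of these changes was not tested.

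Over all tested genes, the calls in Doxo relative to NT (859 higher, 656 lower) ranged from 59 to 1421 and from 22 to 1716 on leaving out a library, and were 695 and 739 with upper-quartile scaling. Those in Doxo+Cyta relative to NT (129 and 78) were 491 and 337 with DESeq2, 9 and 4 with only these groups, and 0 to 111 and 0 to 115 on leaving out a library, with 174 lower without a filter. Those between Doxo+Cyta and Doxo (152 and 329) were 334 and 575 with DESeq2, 6 and 61 with only these groups, and 24 to 423 and 106 to 454 on leaving out a library. The 3530 higher calls in Doxo+Cyta+DAC relative to NT ranged from 2165 (without NT replicate 1) to 3385 on leaving out a library, and with upper-quartile scaling 2960 were higher and 3891 lower, against 3530 and 3363.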
